A study of Equus caballus with 13 samples.

Results

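The genes described here are the 5 subunits of the transcription factor NF-κB (NFKB1, NFKB2, REL, RELA and RELB) and 5 regulators that hold it back or tune it: the inhibitors NFKBIA, NFKBIB and NFKBIE, the nuclear regulator NFKBIZ, and the ubiquitin-editing enzyme TNFAIP3. They were taken by gene symbol, and all 10 were present in both of the authors' RNA kinetics tables, which together listed 11331 genes. The cells were wild-type horse (Equus caballus) chondrocytes from cartilage, cultured for 2 days and then exposed to 4-thiouridine (4sU) for 4 h. This uridine analogue enters RNA made during the exposure and marks it as new. The groups were old female cells (5 samples), young female cells (5 samples) and young male cells (3 samples), with ages given only as old or young.

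NF-κB subunits form dimers that wait in the cytoplasm while bound to IκB proteins. When a cytokine or microbial product reaches the cell, a kinase complex marks the IκB protein for destruction and the dimer enters the nucleus. Among the genes it switches on are those of its own inhibitors, NFKBIA and TNFAIP3 above all, so that the response shuts itself off. In cartilage this pathway mediates the response of chondrocytes to interleukin-1 and tumour necrosis factor. Regulators that act in such a loop are known for short-lived messenger RNA, and the speed at which their RNA is made and lost is what the kinetics tables describe.

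Each table gave a synthesis rate, in arbitrary units, and a half-life, read as hours, for each gene in each of 2 groups. The age table held old and young female cells, and the sex table held young male and young female cells. The values are the authors' estimates for a group, with no value per sample, so no SD, interval or test across samples accompanies them, and a difference is described by its size. The labels do not say whether each sample came from a separate animal. The depth of the samples is unknown. The third quantity below, the implied level, is the synthesis rate times the half-life divided by ln 2, the amount of RNA at which making and losing balance. Ratios of implied level are taken only within a gene, because the files do not say whether synthesis rates were corrected for transcript length. Genes were ranked by implied level only to leave out the lowest 25%, and transcript length may contribute to that ranking. Fewer cells making a transcript and less of it per cell cannot be told apart in such cultures. Nor can batch and group, since 12 batch labels covered the 13 samples and 1 of them alone, batch 10, held samples of both young groups.

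The label of the cells was checked against markers. All 10 chondrocyte markers examined were in both tables, among them SOX9, COL2A1 and ACAN. Of 11 leukocyte markers CD14 was the 1 listed, and PTPRC, CSF1R and TYROBP were in neither table. Of 5 endothelial markers VWF was the 1 listed. Of 5 markers of synovial lining cells or fibroblasts THY1, PDPN and PDGFRA were listed in both tables, while PRG4 and DPP4 were in neither. These markers differed between groups themselves. Chondrocyte markers had a median log2 ratio of implied level of 1.54 in male cells, with 9 of 10 higher, and of −0.31 in old cells, with 6 of 10 lower. The 3 synovial or fibroblast markers had a median of −0.60 in old cells, with 3 of 3 lower, and of −0.21 in male cells, where THY1 was at 1.39 and the other 2 were below 0. Their part in the values below was not tested.

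Every one of the 10 RNAs was shorter-lived than the typical transcript, in every group. By the sex table, half-lives of the 10 in young female cells ran from 0.655 to 3.40 h with a median of 1.81 h, and the median of all genes was 3.74 h. All 10 were under the 4 h labelling time in each group, compared with 52.4% of all genes in young female cells there. The regulators were on the whole shorter-lived than the subunits, with a median of 1.08 against 2.44 h.

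**Figure D1:**
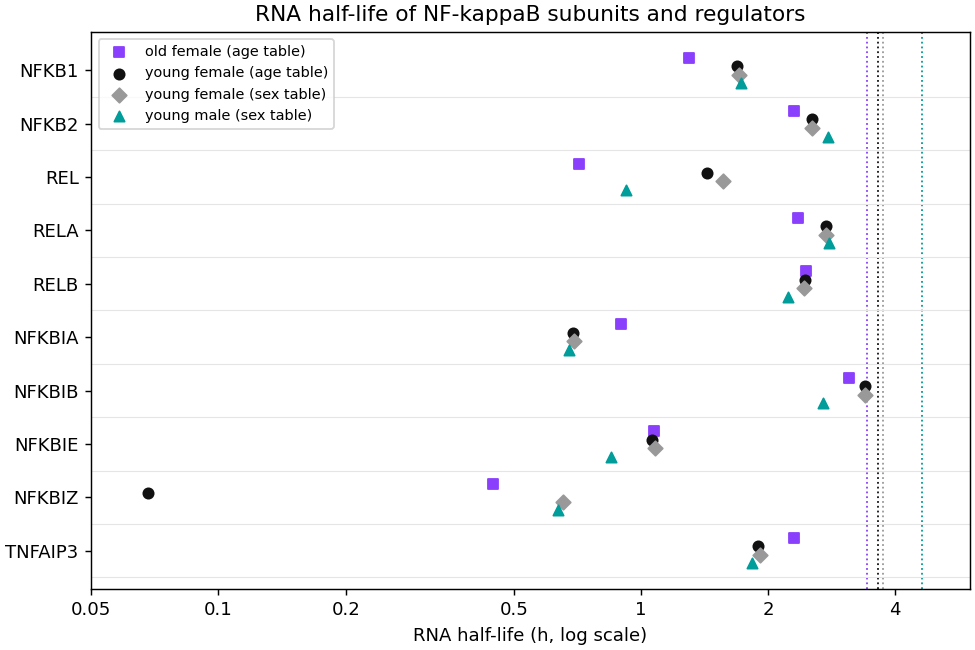
RNA half-life (h, log scale) of the 10 genes, with 1 point for each of the 4 group values in the age and sex tables and dotted lines at the median of all genes in each. All points lie to the left of their group's line, and the young female values of the age and sex tables coincide for every gene except REL, which is slightly apart, and NFKBIZ, listed at 0.0680 and 0.655 h.

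The order of half-lives was nearly the same in the 3 groups. NFKBIA, the main IκB protein, had half-lives of 0.690 and 0.693 h in young female cells (age and sex table), 0.895 h in old cells and 0.674 h in male cells. NFKBIE, a further IκB protein, followed with 1.06 and 1.08 h in young female, 1.07 h in old and 0.848 h in male cells. Among all young female half-lives of the age table, these RNAs were at the 1.49 percentile (NFKBIA) and the 7.43 percentile (NFKBIE). TNFAIP3 lay in the middle of the 10, with 1.90 and 1.92 h in young female, 2.30 h in old and 1.84 h in male cells. NFKBIB, the IκB protein least tied to the feedback loop, had the longest half-life of the 10 in young female and old cells, 3.39 and 3.40 h in young female and 3.11 h in old cells, and 2.70 h in male cells.

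Among the subunits, RELA, the main activating subunit, had half-lives of 2.74 h in young female cells of both tables, 2.36 h in old and 2.78 h in male cells. NFKB2, whose product is processed in the alternative branch of the pathway, had 2.55 and 2.54 h in young female, 2.31 h in old and 2.77 h in male cells. RELB, its partner in that branch, had 2.44 h in young female cells of both tables, 2.46 h in old and 2.23 h in male cells. These 3 RNAs lay close together and changed places between groups, so their order says little. NFKB1, which encodes the usual partner of RELA, was shorter-lived at 1.69 and 1.70 h in young female, 1.30 h in old and 1.72 h in male cells. REL, a subunit best known from lymphocytes, had the shortest half-life of the subunits in every group, with 1.43 and 1.57 h in young female, 0.713 h in old and 0.924 h in male cells.

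A half-life fixes the share of a gene's RNA that would be new after 4 h at steady state. For RELA that share was 63.6% in young female cells of the age table, and for NFKBIB it was 55.8%. For NFKBIA it was 98.2% in the same cells, and for REL it was 85.6% in young female and 97.9% in old cells. Under simple decay, the half-life of an RNA that is nearly all new rests on a small unlabelled remainder.

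NFKBIZ, an atypical IκB protein that acts in the nucleus, had the least settled half-life of the 10. Its young female half-life was 0.0680 h in the age table and 0.655 h in the sex table, a 9.64-fold gap between 2 estimates that share their 5 libraries. Its young female synthesis rate was 52633 in the age table and 5290 in the sex table, 9.95-fold apart in the opposite direction. The implied level was therefore almost the same, 5160 and 4998. At the sex table's half-life 98.6% of its RNA would be new after 4 h, and at that of the age table virtually all of it; the part of this in the gap was not tested. For the other 9 genes the 2 young female half-lives differed by 9.64% for REL and by 1.60% or less for the rest.

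NFKBIZ was 1 of 107 genes, among 10974 in both tables, whose young female half-life differed at least 2-fold between them. In 96 of these 107 exactly 1 of the estimates was under 0.1 h. No gene in either table had a half-life from 0.1 to 0.2 h in any group, although between 70 and 129 genes per group were under 0.1 h and between 9 and 53 lay from 0.2 to 0.5 h. Values under 0.1 h thus formed a class of their own, and of the 96 shared genes in that class in young female cells of the age table, 62 were above it in the sex table. The young female NFKBIZ value of the age table belonged to this class, and the old, male and other young female values did not. No other of the 10 genes had a value under 0.1 h.

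**Figure D2:**
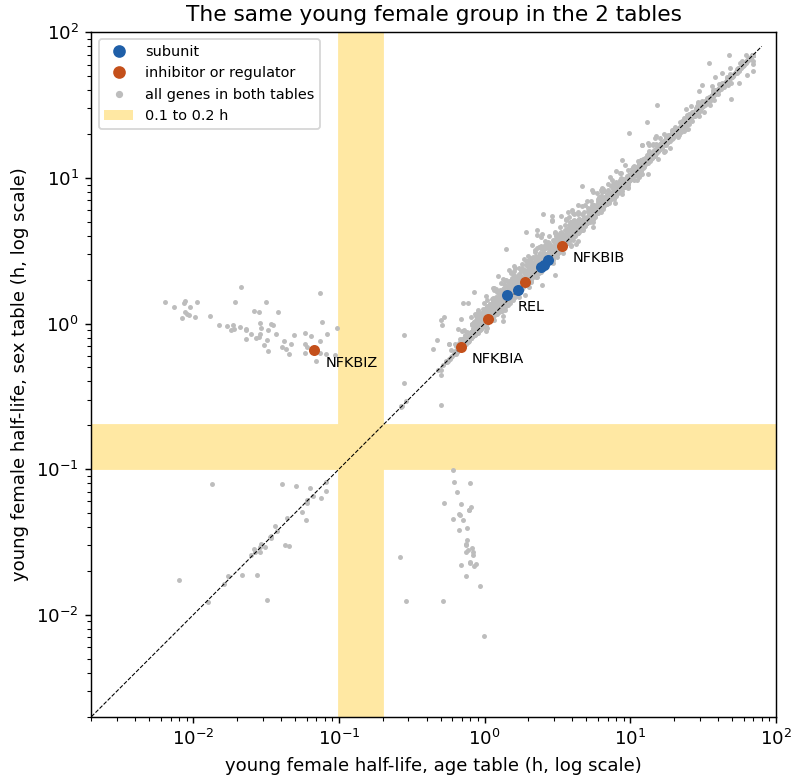
Half-life (h, log scales) of the young female group in the age table against the sex table, with 1 point per gene, the diagonal as a dashed line and the range from 0.1 to 0.2 h shaded. NFKBIZ sits in the arm of genes that are under 0.1 h in the age table and not in the sex table, while the other 9 genes lie on or near the diagonal.

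The same pair of estimates gives a yardstick for the remaining genes, though it holds none of the variation between samples. Among genes whose longer young female half-life was 2 to 4 h, 95% of the absolute log2 differences between tables were within 0.17, and for 1 to 2 h within 0.23. For 0.5 to 1 h, the range of NFKBIA and NFKBIZ, the corresponding value was 4.84, because 74 of those 507 genes differed at least 2-fold. Implied levels hardly moved between tables: after removal of a common offset of −0.07, the same percentile was at most 0.047 in all of these ranges.

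The first comparison asked how age alters RNA kinetics in female cells. Implied levels of the 10 genes lay close together in old and young cells, from a log2 ratio of −0.23 (REL) to 0.32 (RELB) with a median of 0.08, while synthesis and half-life moved against each other. The 2 quantities had opposite signs for 8 of the 10, as they did for 70.4% of all genes. Such opposition also arose between the 2 young female estimates from the same libraries, as for NFKBIZ (log2 differences of 3.27 in half-life and −3.31 in synthesis rate). The part of estimation in the opposite signs by age was not tested. Subunits had higher synthesis rates in old cells, 5 of 5, and shorter half-lives, 4 of 5, where 60.2% of all genes had higher synthesis and 36.5% longer half-lives. The synthesis ratio of RELA was only 0.01, and centring on the median of all genes or within half-life deciles gave 4 of 5 higher. A 2-fold ratio, an absolute log2 ratio of at least 1, was reached in half-life by 2 of the 10 (REL and NFKBIZ), against 3.53% of all genes. In synthesis rate it was reached by 1 of 10 (NFKBIZ) against 7.52%, and in implied level by 0 of 10 against 4.12%. A lower threshold of 0.5 was passed by 2 of 10 for half-life and 2 of 10 for synthesis rate (REL and NFKBIZ in both) and 0 of 10 for level, against 13.4%, 23% and 15.6% of all genes. With the young female values of the sex table, REL alone reached 2-fold in half-life and 0 of 10 did in synthesis rate, beside 370 and 893 of 10974 genes.

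REL differed most among the subunits in half-life and synthesis rate. Its half-life was 1.43 h in young and 0.713 h in old cells, a log2 ratio of −1.003 that only just reached the threshold and was −1.14 with the young female value of the sex table. Relative to the median of all genes, which was −0.08, it was −0.92 and no longer past the threshold. The synthesis rate of REL was 211 in young and 361 in old cells, a log2 ratio of 0.78. The implied level went from 435 to 371, a log2 ratio of −0.23, since the ratios of half-life and synthesis rate were of opposite sign. The 2 young female estimates of REL also differed in opposite directions, by 0.13 in half-life and −0.20 in synthesis rate (log2, sex against age table).

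NFKB1 showed a like pattern on a smaller scale. Its half-life was 1.69 h in young and 1.30 h in old cells (log2 ratio −0.38), and its synthesis rate 1461 and 1829 (0.32). The implied level was 3566 in young and 3438 in old cells, a log2 ratio of −0.05. RELA had a shorter half-life (−0.22) with a synthesis rate that was nearly equal, 1902 in young and 1913 in old cells, and its implied level had a log2 ratio of −0.21. RELB was the reverse, with half-lives of 2.44 and 2.46 h and a synthesis rate of 769 in young and 957 in old cells, which gave the highest level ratio of the 10, 0.32. NFKB2 had a log2 ratio of −0.14 for half-life and 0.24 for synthesis rate. The half-life ratios of REL and NFKB1 were larger than the yardstick of the 1 to 2 h range, as were those of 35.3% of all genes in it. In the 2 to 4 h range 51.2% of all genes were beyond theirs, and of the subunits there RELA was and NFKB2 and RELB were not. RELA was within it after centring on the median of all genes (−0.13) or inside its half-life decile (−0.14).

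NFKBIA and TNFAIP3, the regulators most closely tied to the feedback loop, went the other way from most subunits, with lower synthesis rates and longer half-lives in old cells. The synthesis rate of NFKBIA was 2900 in young and 2181 in old cells (log2 ratio −0.41), and its half-life 0.690 and 0.895 h (0.38, above 92.8% of all genes). Its implied level was 2886 in young and 2817 in old cells, a log2 ratio of −0.03. TNFAIP3 had a synthesis rate of 298 in young and 266 in old cells (−0.16) and half-lives of 1.90 and 2.30 h (0.28, above 89.4% of all genes). Its implied level was 814 in young and 885 in old cells (0.12). The half-life ratio of TNFAIP3 exceeded its yardstick of 0.23, which 35.3% of all genes in that range did. That of NFKBIA was far below the 4.84 of its range, although its own young female estimates were only 0.516% apart.

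NFKBIB and NFKBIE differed little. The log2 half-life ratios were −0.13 for NFKBIB and 0.01 for NFKBIE, and the synthesis ratios 0.30 and 0.08. For NFKBIZ the age table gave a log2 half-life ratio of 2.72 and a synthesis ratio of −2.66. Both reversed when the young female value came from the sex table, to −0.55 and 0.66, since the old half-life of 0.447 h lay between the 2 young female estimates. The level ratio of NFKBIZ was 0.06 and 0.10 under these choices, so the level is the value of this gene that both tables share.

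**Figure D3:**
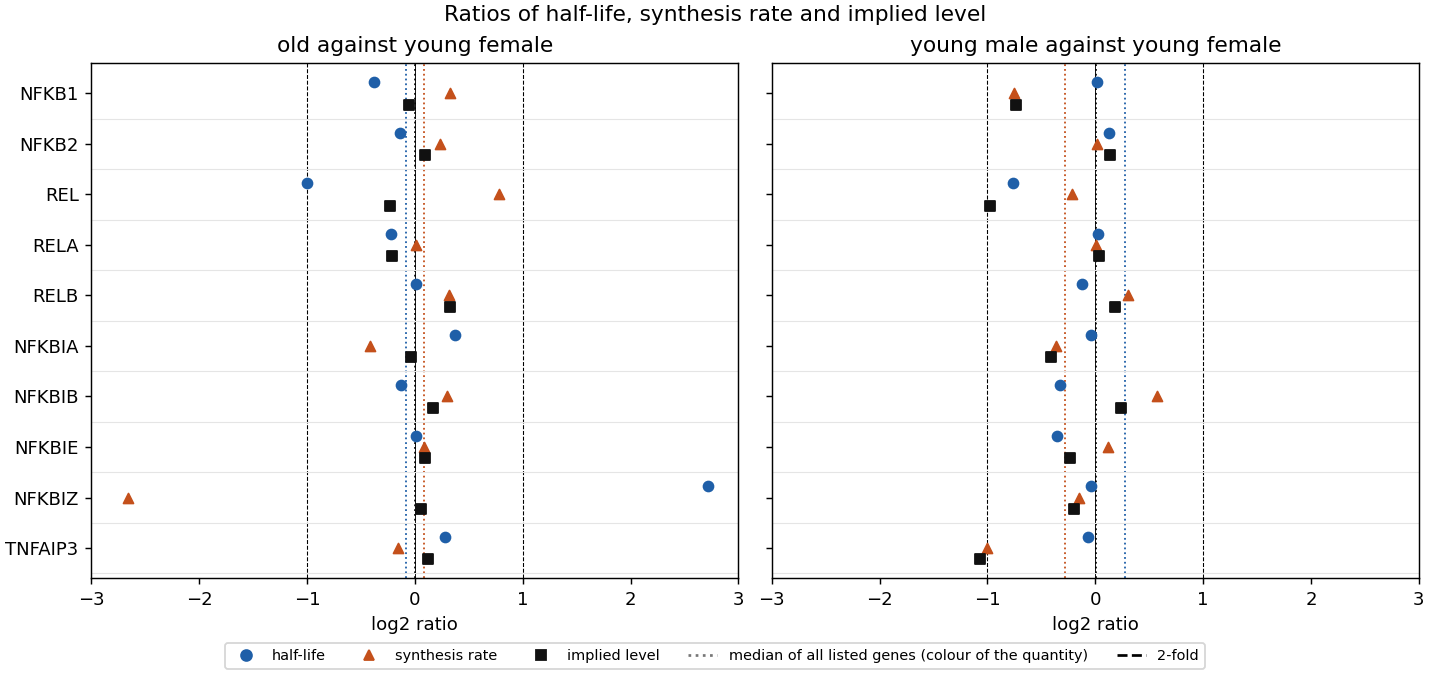
Log2 ratios of half-life (circles), synthesis rate (triangles) and implied level (squares) for each of the 10 genes, old against young female on the left and young male against young female on the right, with dotted lines at the median of all genes and dashed lines at 2-fold. In the age panel the squares gather between −0.23 and 0.32, with circle and triangle on opposite sides of 0 for 8 of the 10 genes. In the sex panel the squares of TNFAIP3, REL and NFKB1 lie apart to the left.

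The second comparison set young male against young female cells, to ask how sex bears on RNA kinetics. Here the 10 half-lives kept close to the female values or were shorter, with a median log2 ratio of −0.05, while that of all genes was 0.27. All 10 were below the median of all genes, and 7 of 10 were below 0, where 77.3% of all genes were longer-lived in male cells. Half-life and synthesis rate had opposite signs for 4 of the 10, where 76.2% of all genes had them. That count depends on the zero point, since the median synthesis ratio of all genes was −0.28 and some ratios were small (RELA, 0.02 and 0.01). Relative to the medians of all genes, 7 of 10 synthesis ratios were higher while all 10 half-life ratios were lower. Implied levels spread more widely than in the age comparison, from −1.07 (TNFAIP3) to 0.24 (NFKBIB). A 2-fold ratio was reached in half-life by 0 of 10, against 7.58% of all genes. It was reached in synthesis rate by 1 of 10 against 12.2%, and in implied level by 1 of 10 against 4.61%, in both cases by TNFAIP3. At 0.5 the counts were 1 of 10 for half-life, 3 of 10 for synthesis rate and 3 of 10 for level, against 31.8%, 41.1% and 25% of all genes, so none stood well above the background.

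The male half-life ratio of all genes varied with half-life, so the 10 genes were also set against genes of like half-life, in deciles of the old female half-life. The decile medians that apply to the 10 ran from −0.01 to 0.28. After centring within these deciles, all 10 still had a half-life ratio under 0, with a median of −0.25, and 7 of 10 had a synthesis ratio above 0, with a median of 0.29. The half-life ratios of NFKBIA and NFKBIZ (both −0.03) and of NFKB1 (−0.06) were near 0. That of NFKBIZ, uncentred, was 3.23 with the young female value of the age table. The median log2 ratio of implied levels was −0.21 before and 0.12 after this centring, so that no direction can be given for the level of the group.

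TNFAIP3 had the lowest ratio of implied level in male cells. Its synthesis rate was 281 in female and 140 in male cells, a log2 ratio of −1.01 that just reached the threshold, with half-lives of 1.92 and 1.84 h (−0.06). The implied level was 778 in female and 370 in male cells, 2.10-fold lower, with a log2 ratio of −1.07. Only 1.17% of all genes had a lower level ratio. In the sex comparison TNFAIP3 is among the lowest 25% of genes by implied level, so both calls are lost when those genes are left out. In the age comparison it is not among them. Within its half-life decile the level ratio was −0.89 and the synthesis ratio −0.60, both short of 2-fold, and after centring on the median of all genes the synthesis ratio was −0.73.

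NFKB1 and REL also had lower implied levels in male cells, with different values for synthesis and half-life. For NFKB1 the synthesis rate was 1384 in female and 822 in male cells (−0.75) with half-lives of 1.70 and 1.72 h, and the level was 1.67-fold lower (−0.74). For REL the half-life was 1.57 h in female and 0.924 h in male cells (−0.76), with synthesis rates of 183 and 158 (−0.22). The level of REL was 415 in female and 210 in male cells, 1.97-fold lower (−0.98), and with the young female value of the age table it was past the threshold at −1.05. Within half-life deciles the level ratios were −0.43 for NFKB1 and −0.63 for REL. The synthesis ratio of NFKB1 was −0.47 after centring on the median of all genes and −0.36 within deciles, and its half-life ratio, 0.02 before centring, turned to −0.26 and −0.06. The synthesis ratio of REL turned to 0.06 and 0.10 under the same centrings, while its half-life ratio was −1.04 and −0.75. The half-life of REL was thus shorter in old and in male cells than in young female cells, but these comparisons share the young female libraries.

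The other 3 subunits had level ratios from 0.03 to 0.18 before centring. RELA had synthesis rates of 1819 in female and 1829 in male cells and a level ratio of 0.03. NFKB2 had a level ratio of 0.14 and RELB one of 0.18. Set against their half-life deciles the level ratios were 0.21 for RELA, 0.32 for NFKB2 and 0.36 for RELB. Because a ratio of ratios is free of transcript length, each gene can be set against RELA. Relative to RELA, TNFAIP3 was 2.15-fold, REL 2.02-fold, NFKB1 1.70-fold and NFKBIA 1.36-fold lower in male than in female cells. NFKBIE (1.20-fold) and NFKBIZ (1.17-fold) were lower too, and NFKBIB (1.16-fold), RELB (1.11-fold) and NFKB2 (1.08-fold) were higher. In old cells 8 of the 9 genes were higher relative to RELA than in young ones. RELA itself had a level ratio of −0.21, and only 23.1% of all genes had a lower one, so most genes were higher relative to RELA too. The 8 ran from 1.11-fold for NFKB1 to 1.45-fold for RELB, and REL was 1.01-fold lower.

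Among the IκB proteins, NFKBIA had a synthesis rate of 2755 in female and 2135 in male cells (−0.37) and a half-life ratio of −0.04, with a level ratio of −0.41. Within its half-life decile, the shortest-lived, the level ratio was −0.06, because the median level ratio of that decile was itself −0.35. NFKBIB had a higher synthesis rate in male cells, 475 against 320 (0.57), with a shorter half-life of 2.70 against 3.40 h (−0.33). NFKBIE had a half-life of 0.848 in male and 1.08 h in female cells (−0.35) and a level ratio of −0.23, which turned to 0.08 within its decile. The half-life ratios of REL and NFKBIE exceeded the yardstick of 1 to 2 h, as did 48.9% of all genes in that range, and that of NFKBIB exceeded the one of 2 to 4 h, as did 70.6%. These shares are large, so passing the yardstick sets none of the 10 apart. After centring on the median of all genes NFKB1 (−0.26), TNFAIP3 (−0.34), RELA (−0.25) and RELB (−0.40) passed it too, when 51.7% of all genes at 1 to 2 h and 58.1% at 2 to 4 h did. For NFKBIZ the sex table gave half-lives of 0.637 and 0.655 h (−0.04) and a level ratio of −0.19, which turned to 0.16 within its decile. Set against the young female value of the age table, its half-life ratio was 3.23 in place of −0.04.

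The rest of the pathway was read from 4 lists, of which 79 genes were in each table. In the age comparison 3 of 79 passed 2-fold for half-life (IRAK2, SOCS1 and IL6), beside 3.53% of all genes, and all 3 had a value under 0.1 h, the class in which NFKBIZ fell. For synthesis rate 9 passed, beside 7.52% of all genes, and for level 3, beside 4.12%. In the sex comparison 6 passed for half-life (7.59%, beside 7.58% of all genes), 4 of which (MAP3K14, BCL3, SOCS1 and IRF1) had such a value, while BIRC2 and TNFAIP6 did not. For synthesis rate 21 passed, beside 12.2% of all genes, and the same 4 genes with a value under 0.1 h were among them. After centring on the median of all genes 15 passed, beside 9.87% of all genes, and 14 of these were among the 21. For level 6 passed, beside 4.61%. The counts for half-life were thus near those of all genes.

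Receptors and adaptors, which carry the signal from the cell surface, had level ratios in old cells with a median of −0.01 (log2), and 7 of 19 were higher. CD40, a receptor of the tumour necrosis factor family, had a higher synthesis rate (1.57) and level (1.10). Both calls of CD40 are lost when the lowest 25% of genes by implied level are left out. IL1RAP, the co-receptor for interleukin-1, had a lower synthesis rate in old cells (−1.07, and −0.92 with the other table's young female value) and in male cells (−1.20, and −0.92 after centring on the median of all genes). IRAK2, a kinase downstream of that receptor, was listed at 1.38 h in young and 0.0195 h in old cells, with a level ratio of −0.34. In male cells the list had a median level ratio of −0.18, which turned to 0.02 once each gene was set against its own half-life decile (10 of 19 higher). The synthesis rates of TRAF6 (−1.45) and RIPK2 (−1.13), which lead to the IκB kinases, were more than 2-fold lower, but that of RIPK2 was −0.85 after centring on the median and −0.75 within deciles.

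The kinases and ubiquitin machinery that activate the pathway had a median level ratio of −0.11 in old cells. None of the 18 listed was past 2-fold in any of the 3 quantities. With the young female values of the sex table, MAP3K14 alone of them was past it by age, in half-life and synthesis rate. In male cells the median level ratio was −0.25, with 11 of 18 lower, and −0.01 after centring within half-life deciles. CHUK, a catalytic subunit of the IκB kinase, had a lower synthesis rate in male cells (−1.36, and −0.96 within deciles) and a half-life of 5.34 against 2.67 h. Its synthesis call is also lost without the lowest 25% of genes by implied level. IKBKB, the other catalytic subunit, had ratios of 0.01 for half-life and 0.00 for synthesis rate. TBK1, a related kinase, had a synthesis ratio of −1.62 and a level ratio of −0.98. MAP3K14, the kinase of the alternative branch, was listed at 0.0218 h in young female cells by the sex table and 0.843 h by the age table, and its level ratio in male cells was 0.02. With the value of the age table its male half-life ratio was 0.70 in place of 5.97.

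Other inhibitors and atypical IκB proteins had median level ratios of 0.04 in old cells (10 of 20 higher) and −0.22 in male cells (6 of 20 higher), where centring within half-life deciles gave 0.00 (10 of 20 higher). BIRC3, a ubiquitin ligase and target of NF-κB, differed in synthesis rate in both comparisons. Its synthesis rate was 424 in young and 1026 in old female cells (1.27), and 401 in young female and 112 in male cells (−1.84). Its level ratio was 0.78 in old and −1.43 in male cells. BIRC2, its close relative, had a male half-life ratio of 1.01 and a synthesis ratio of −1.09. IRAK3 (−1.08) and NKIRAS1 (−1.12), which restrain signalling, also had lower synthesis rates in male cells. None of these 4 values stayed past 2-fold after centring: on the median they were 0.74 and −0.82 for BIRC2, −0.80 for IRAK3 and −0.85 for NKIRAS1, and within deciles they were 0.65, −0.83, −0.70 and −0.76. BCL3, an atypical IκB protein, was listed at 0.890 h in female and 0.0532 h in male cells with a level ratio of 0.04. SOCS1, a cytokine feedback inhibitor, was under 0.1 h in 3 of its 4 values.

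Target genes of NF-κB could be read only in part, because 14 of the 36 on the list, among them CXCL8, CXCL1, CCL2, IL1B, TNF and SOD2, were in neither table. The 22 that were listed had the lowest median level ratio of the 4 lists in both comparisons. The median level ratio was −0.29 in old cells, with 14 of 22 lower, where that of the chondrocyte markers was −0.31, and −0.54 in male cells, with 19 of 22 lower, where that of the markers was 1.54. After centring within half-life deciles it was −0.30 (15 of 22 lower) and −0.34 (15 of 22 lower). The median level ratio of all genes was 0.00 and 0.01, and that of the 10 NF-κB genes 0.08 and −0.21. The chemokine CCL20 had a level 4.77-fold lower in male cells (−2.25). The cytokines LIF (−1.64) and IL6 (−1.52) and the nitric oxide synthase NOS2 (−1.01, and −0.66 within deciles) were also more than 2-fold lower, and the collagenase MMP13 (1.25) was higher. In old cells the levels of the plasminogen activator PLAU (−2.20) and of MMP3 (−1.26) were lower. The PLAU call is lost without the lowest 25% of genes by implied level, and that of MMP3 when half-lives must lie from 1 to 24 h. IL6 was listed at 0.0230 h in young female cells of the age table and 0.780 h in those of the sex table. Its age ratio of half-life was 4.75 in the age table and −0.33 with the other value, while its level ratio was 0.28.

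Besides IL6, the target genes past 2-fold in synthesis rate but not in level in old cells were NOS2 (1.48), LIF (−1.02, and −0.94 with the other table's young female value) and TNFAIP2 (−1.18), a gene induced by tumour necrosis factor. In male cells the synthesis rates of TNFAIP6 (−2.25), TNFAIP2 (−1.57), MMP3 (−1.55), MYC (−1.21) and the adhesion molecule VCAM1 (−1.09) were lower by more than 2-fold. MYC and VCAM1 were short of it after centring on the median (−0.93 and −0.81) and within deciles (−0.89 and −0.91). The half-life of TNFAIP6, a secreted hyaluronan-binding protein, was 10.0 h in male and 3.43 h in female cells (1.55). Without the lowest 25% of genes by implied level this half-life call is lost. So are the synthesis calls of TNFAIP6 in male cells and of TNFAIP2 in both comparisons. IRF1, a transcription factor, was listed at 1.87 h in female and 0.0187 h in male cells, with a level ratio of −0.95. Where a value under 0.1 h entered the ratio of these pathway genes, half-life and synthesis rate had ratios of opposite sign, and the level ratio lay between −0.95 (IRF1) and 0.48 (SOCS1, in old cells).

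**Figure D4:**
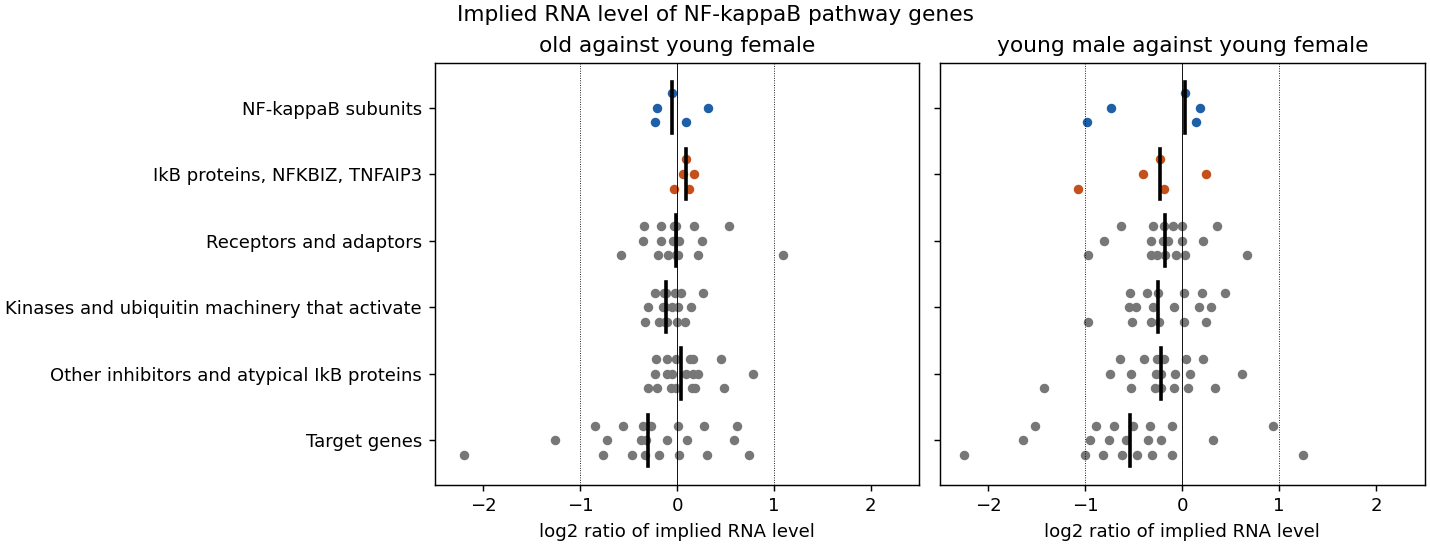
Log2 ratio of implied RNA level for each listed gene, by list, old against young female on the left and young male against young female on the right, with a black bar at each list's median and dotted lines at 2-fold. The bar of the target genes lies lowest in both panels, at −0.29 and −0.54, and those of the subunits lie at −0.05 and 0.03.

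Genes with the most similar kinetics were sought over 6 values, the log2 half-life and log2 synthesis rate of 3 groups, by Euclidean distance, with the young female values of the age table. The nearest to NFKB1 was GAPVD1 at a distance of 0.20, and the nearest to NFKB2 was PHF19 at 0.24. NFKBIA had BCL9 at 0.43, with half-lives of 0.748 h in young female and 0.781 h in old cells. REL had no gene closer than 0.59. The neighbours of NFKBIZ depended on its young female value. With the 0.068 h of the age table they were SNAI2, ADM and SNAI1, at 0.64, 0.79 and 1.12, all likewise under 0.1 h there. With the 0.655 h of the sex table they were TRIB1, SOCS3 and ARID1A, at 0.40, 0.43 and 0.67, and 0 of the 3 were shared. Each of the other 9 genes kept at least 2 of its 3 neighbours under this change. Synthesis rates entered these distances as deposited, so transcript length may contribute to them.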

How the data were processed

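RNA was poly(A)-selected and strand-specific libraries were made after alkylation of the labelled RNA, per the labels' protocols. The submitters' processing notes name cutadapt 4.5, STAR 2.5.3 and the genome build EquCab3.0. The kinetic model, the annotation, the gene filter and the way replicates were combined are not given in the sources used here. The deposited tables held 11056 genes for age and 11249 for sex, with a synthesis rate and a half-life per group and 0 columns of values per sample. Neither unit was stated; hours were inferred from the 4 h labelling and a ceiling of 69.3 h, or ln 2 divided by 0.01. The group headed Young in the age table was read as young female, because the labels name that table for those 5 samples.

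Log2 ratios were computed within a table for every gene, with no pseudocount or filter (Python 3.11.15, pandas 2.3.3, numpy 2.4.6), and checked on simulated data. The implied level assumes constant RNA levels during labelling. The 10 genes, the pathway lists and the comparisons were chosen with earlier results of these data known. Named pathway genes were those past a log2 ratio of 1 in any of the 3 quantities; others named were chosen after their values were seen (IKBKB). Alternatives were a threshold of 0.5, centring on the median of all genes or within 10 half-life deciles, half-lives of 1 to 24 h, removal of genes of low implied level, and the other table's young female values.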

Additional observations from a re-analysis of the deposited data

How the results depend on the processing

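No paired analysis was possible because the tables hold group values with no value per sample, and for the same reason no replicate could be left out. Depth is unknown, and nothing here bears on variation between samples or animals. A median was taken as moved beyond 0.1 log2 units and a count beyond 1.5 times, and the cause of a move was not tested unless stated.

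Of the 2 genes past 2-fold for half-life by age, NFKBIZ alone remained past it after centring on the median of all genes (beside 390 of 11056 genes). The same held within half-life deciles (362 of 10974) and without the lowest 25% of genes by implied level (120 of 8292). REL alone remained past it with the other table's young female values (370 of 10974). REL also did so without the genes whose young female half-life differs 2-fold between tables (315 of 10949), a setting chosen after seeing the data. When both half-lives had to lie from 1 to 24 h, the count was 0 for half-life and 0 for synthesis rate, beside 81 and 431 of 9108 genes, since REL and NFKBIZ are then left out. For synthesis rate by age the count was also 0 with the other table's values (beside 893 of 10974 genes) or without the differing genes (754 of 10949). It was 2 at a threshold of 0.5, which 23% of all genes passed. The median synthesis ratio by age, 0.16, became 0.33 with the other table's values and 0.0529 within deciles.

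In the sex comparison a threshold of 0.5 gave 1 gene for half-life (REL), 3 for synthesis rate (NFKB1, NFKBIB and TNFAIP3) and 3 for level (NFKB1, REL and TNFAIP3), beside 31.8%, 41.1% and 25% of all genes. Centring on the median gave 1 for half-life (REL, at −1.04) and 0 for synthesis rate, beside 641 and 1110 of 11249 genes. Deciles gave 0 for synthesis rate and 0 for level, beside 951 and 296 of 10974. Leaving out the lowest 25% by level, which removes REL and TNFAIP3, gave 0 for both, beside 592 and 235 of 8437. The other table's young female values gave 1 for half-life (NFKBIZ), 2 for synthesis rate (NFKBIZ and TNFAIP3) and 2 for level (REL and TNFAIP3). Beside these, 832, 1480 and 447 of 10974 genes passed. The median half-life ratio, −0.05, became −0.33 after centring and −0.25 within deciles. The median synthesis ratio, −0.07, turned to 0.21 after centring and 0.29 within deciles and was −0.24 with the other table's values. The median level ratio, −0.21, turned to 0.12 within deciles and 0.0851 within 1 to 24 h (6 genes), and was −0.0807 without the lowest 25%.

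With the other table's young female values the age ratios of NFKBIZ turned to −0.55 for half-life and 0.66 for synthesis rate, and those of IL6 to −0.33 and 0.63. The half-life ratio of SOCS1 turned to −4.47 by age and 1.18 by sex, and its synthesis ratio by sex to −1.45. All of these have a young female value under 0.1 h in 1 table. Over all genes, counts past 2-fold for half-life ranged from 81 to 390 by age and from 319 to 853 by sex, and at the threshold of 0.5 they were 1476 and 3573.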
